A study of Mus musculus with 2 samples.

Results

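Genes of the retinoic acid pathway were followed across the cell types of the newborn mouse lung. They were chosen by name for their roles in uptake (Stra6), synthesis (Aldh1a1, Aldh1a2 and Aldh1a3), binding (Crabp1 and Crabp2), reception (Rara and Rarb) and degradation (Cyp26b1), and they made up 9 of the 27254 genes listed in the data. All 9 had at least 1 unique molecular identifier (UMI, a tag that marks each captured RNA molecule) in both batches. The data were Drop-seq profiles, in which droplets capture single cells on barcoded beads, of whole lung from wild-type (wt) C57BL/6J mice at postnatal day 1. No treatment was compared, and each of the 2 batches held the lung of 1 female mouse, so that batch and mouse cannot be told apart. Cells with mitochondrial transcripts in more than 10% of their UMIs were left out, which removed 1 of 2389 cells in Batch 1 and 1940 of 7555 cells in Batch 2.

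Retinoic acid is made from vitamin A (retinol) by oxidation to retinaldehyde and then by the retinaldehyde dehydrogenases of the Aldh1a family. Inside the cell it is carried by Crabp proteins and binds the retinoic acid receptors, transcription factors that sit with RXR partners on paired short motifs near target genes, and it is removed by the Cyp26 enzymes. In the lung the pathway is known for its part in bud formation, in the formation of alveoli and in the storage of vitamin A by fibroblasts.

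The 2388 kept cells of Batch 1 held 4432553 UMIs with a median of 1386.5 per cell, and the 5615 of Batch 2 held 18232639 with a median of 2014. No barcode was shared between batches. Cells were clustered without the 9 genes and 50 other retinoid genes, and clusters were named as "-like" only where most of their marker genes were higher than in the rest. This gave 26 cell classes, of which 23 had at least 10 cells in each batch and entered the comparisons, and 437 cells (5.46%) in 11 clusters stayed unnamed. Secretory and ciliated airway cells were joined into an airway epithelial-like class because Batch 1 held 4 and 9 of them. The leading genes of the smooth muscle-like class included the cardiac genes Myl7, Tnnt2 and Actc1. No doublet caller was run.

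Levels are given as UMIs of a gene per 10000 UMIs of a class. Intervals in brackets are exact 95% limits, Poisson for levels and binomial for shares of cells, and cover counting error only. For tests, UMIs were summed by class and batch and each class was compared with the mean log2 level of the other 22 by edgeR's quasi-likelihood test with batch as a block and Benjamini-Hochberg adjustment over all 7136 genes that passed the filter on low counts. Since many classes held no UMI of a gene, the size of these log2 differences depends on how the fit treats zeros, and the levels are the firmer measure. Aldh1a1, Aldh1a2 and Rara passed the filter, and the other 6 genes did not. Among the 69 tests of these 3 genes, 13 were called higher at an adjusted p under 0.05 and 2 were called lower, which made 18.8% called higher against 13.8% of all gene and class tests. The higher calls include those of Aldh1a2, which passed the filter only through the class in which it was highest. The share of 18.8% is therefore a count and gives no support. The share of all 7136 genes called in a class stands beside the first result in that class. The p-values rest on how class sums differed between the 2 batches once the shift common to a batch was removed. This spread was pooled over classes, and sums of 1 mouse were treated as independent. With 1 mouse per batch, the p-values do not measure the spread between mice.

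The 9 genes were sparse. No UMI of any of them was found in 82.6% of cells in Batch 1 and 81.4% in Batch 2, and 15.6% and 16.6% of cells held a UMI of exactly 1 of the genes. Rara was the most widely spread, with UMIs in 22 of the 23 classes in each batch, and Crabp1 the least, with UMIs in 1 class in Batch 1 and 2 classes in Batch 2. The plot of detection shows these patterns for all 9 genes.

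**Figure D1:**
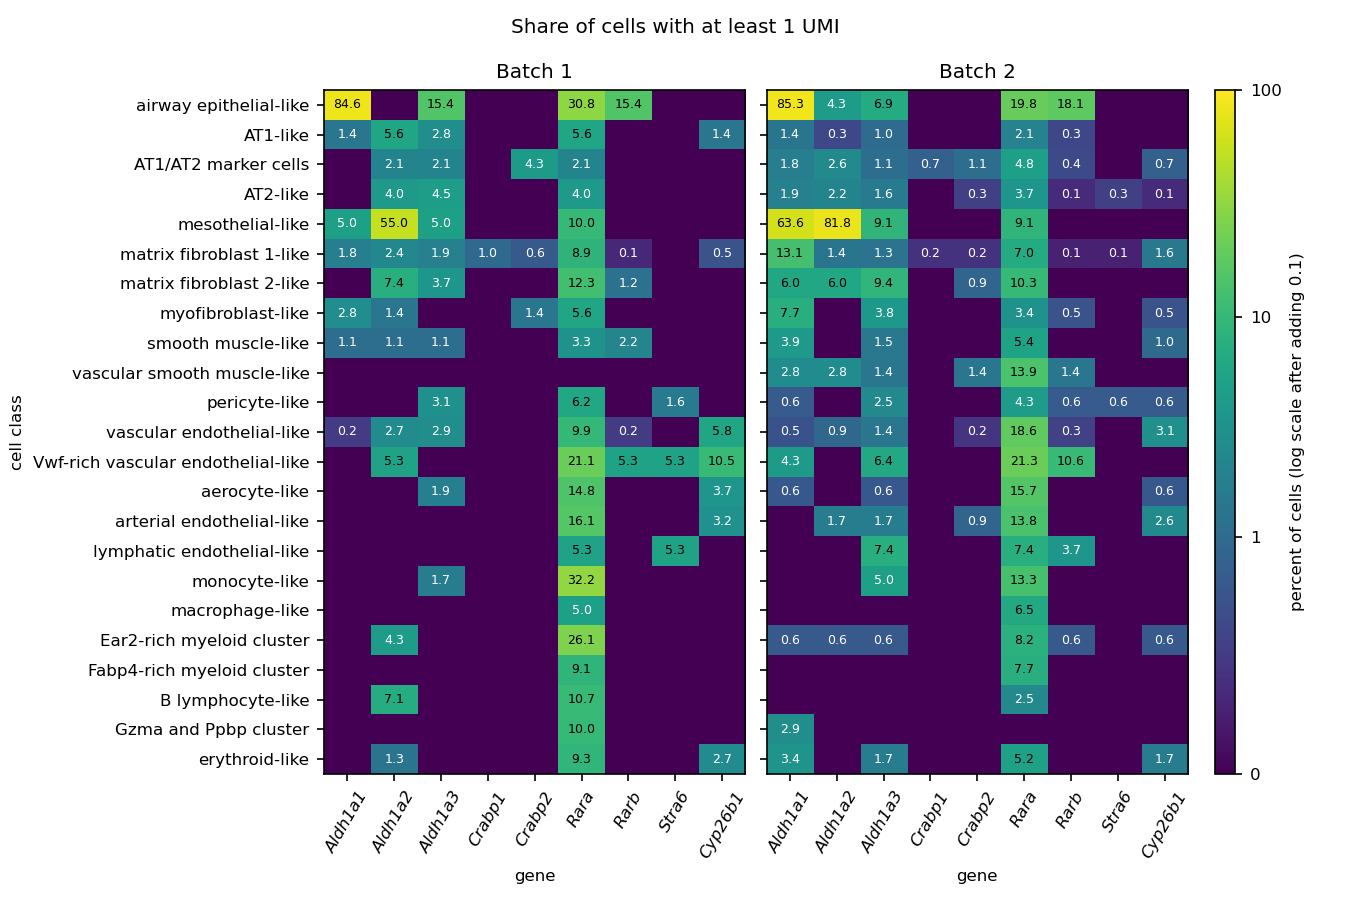
Share of cells with at least 1 UMI of each of the 9 genes in the 23 cell classes, for Batch 1 and Batch 2, with the percent printed in each field, fields without a number at 0, and colour on a log scale after adding 0.1. Aldh1a1 stood at 84.6% and 85.3% of airway epithelial-like cells, Aldh1a2 at 55% and 81.8% of mesothelial-like cells, and Stra6, Crabp1 and Crabp2 were almost empty.

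Stra6 encodes the membrane receptor that takes retinol up from its carrier in blood. It had 3 UMIs in Batch 1 and 4 in Batch 2. In Batch 1 they lay in 3 cells, 1 each of the pericyte-like, lymphatic endothelial-like and Vwf-rich vascular endothelial-like classes, and in Batch 2 in 1 pericyte-like, 1 matrix fibroblast 1-like and 2 AT2-like cells. The pericyte-like class was the only class with a UMI in both batches. A count of 1 per class gives no order of levels, so that differences in Stra6 between cell types were not detectable at this depth.

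Aldh1a1, a retinaldehyde dehydrogenase (chr19:20492715-20643465, plus strand, GRCm38), was concentrated in the airway epithelium. In airway epithelial-like cells its level was 7.64 per 10000 [5.46 to 10.4] in Batch 1 (40 UMIs in 13 cells) and 7.20 [6.80 to 7.62] in Batch 2 (1194 UMIs in 116 cells). The 2 batches overlapped in this class, and no other class came near it in both. These cells made up 0.544% and 2.07% of all cells and held 60.6% and 78.5% of all Aldh1a1 UMIs. Over all other cells the level was 0.0594 and 0.197, so that the class stood 129-fold and 36.5-fold higher.

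A UMI of Aldh1a1 was found in 84.6% [54.6 to 98.1] of airway epithelial-like cells in Batch 1 and 85.3% [77.6 to 91.2] in Batch 2, at median depths of 3431 and 6213.5 UMIs per cell. In vascular endothelial-like cells, with median depths of 1216 and 1868, the share was 0.242% and 0.469%. After each cell was thinned to 600 UMIs the airway shares were 38.5% and 42.2%, against 0% and 0.0937% in vascular endothelial-like cells. B lymphocyte-like cells held no UMI in 28 and 40 cells, which allows a share of up to 10.7% and 7.5%. The fitted difference of the airway class was 8.17 log2 units (SE 0.32, edgeR adjusted p = 1.6e-29), in a class where 19.4% of all genes tested were called higher.

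Both clusters of airway cells carried the transcript. The ciliated-like cluster had the secretory genes Scgb1a1 and Scgb3a2 among its 10 leading genes beside Foxj1, and its level exceeded that of all other cells by a mean of 3.72 log2 units over the ciliated markers and of 3.06 over the secretory markers, so that the clusters do not part the 2 kinds of cell cleanly. Ciliated-like cells had 6.85 and 7.43 per 10000 and secretory airway-like cells 10.97 and 6.24, where the value of 10.97 rests on 11 UMIs in 4 cells. With the airway classes kept apart, an alternative added after the data were seen, the secretory minus ciliated difference in Aldh1a1 was -0.10 log2 units (SE 0.45, edgeR adjusted p = 1). Per cell, the count of Aldh1a1 UMIs had a median of 2 (range 0 to 11) in Batch 1 and of 5 (range 0 to 190) in Batch 2. The cell with 190 UMIs was a ciliated-like cell of 96351 UMIs in all, and without it the Batch 2 level of the airway class was 6.43. In the airway class, 6 of 7 and 7 of 7 secretory marker genes and 9 of 9 and 9 of 9 ciliated marker genes had UMIs, summing to 841 and 698 per 10000 for the secretory list and 34.6 and 16.0 for the ciliated list.

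Outside the airway, Aldh1a1 was called higher in the mesothelial-like, matrix fibroblast 1-like, myofibroblast-like, matrix fibroblast 2-like and smooth muscle-like classes, and in these it differed between the batches. In mesothelial-like cells, which line the lung surface, the level was 0.248 [0.00628 to 1.38] (1 UMI) in Batch 1 and 3.38 [1.85 to 5.67] (14 UMIs) in Batch 2. The fitted difference was 5.45 log2 units (SE 0.74, edgeR adjusted p = 4.2e-08, 8.24% of genes called higher in the class). In matrix fibroblast 1-like cells the level was 0.143 [0.0835 to 0.230] (17 UMIs in 834 cells) and 0.997 [0.868 to 1.14] (214 UMIs in 1159 cells), and these intervals do not overlap. The fitted difference there was 4.09 log2 units (SE 0.40, edgeR adjusted p = 1.2e-12, 23.3% of genes called higher).

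The gap between the batches was present in each of the 3 clusters of matrix fibroblast 1-like cells, with 0.224, 0.0478 and 0.0707 per 10000 in Batch 1 against 1.05, 0.987 and 0.960 in Batch 2. Depth moved with it, since median UMIs per cell were 1294 and 1703. After thinning to 600 UMIs the shares of cells with a UMI were 0.839% and 5.26%, and with mitochondrial UMIs held to at most 5% the levels were 0.144 and 0.911. On the scale of log2 CPM (UMIs scaled to a common library size) within a batch, where a class is set against the mean of the others with no test, the fibroblast difference was 3.25 in Batch 2 alone and 0.66 in Batch 1 alone. The part of mouse, batch or handling in this gap was not tested.

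Myofibroblast-like cells had 0.237 (2 UMIs) and 0.647 (19 UMIs) of Aldh1a1, a difference of 3.52 log2 units (SE 0.64, edgeR adjusted p = 1.9e-05, 14.7% of genes called higher). Matrix fibroblast 2-like cells had no UMI in Batch 1 and 0.371 (11 UMIs) in Batch 2, with 2.54 log2 units (SE 0.74, edgeR adjusted p = 0.0101, 14.5% of genes called higher), and in Batch 1 alone the sign was the opposite at -0.55. Smooth muscle-like cells had 0.0854 (1 UMI) and 0.311 (11 UMIs), with 2.43 log2 units (SE 0.73, edgeR adjusted p = 0.0120, 15.1% of genes called higher). In Batch 1 alone the mesothelial-like, myofibroblast-like and smooth muscle-like differences were 1.18, 1.13 and 0.28, against 5.06, 2.62 and 1.58 in Batch 2 alone. AT2-like cells, the surfactant-producing alveolar cells, had no UMI in Batch 1 and 0.0402 (14 UMIs in 736 cells) in Batch 2.

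Aldh1a7 is a close paralogue of Aldh1a1. Of the 2309 windows of 50 bases in the Aldh1a1 transcript, 151 (6.54%) were also found in an Aldh1a7 transcript, but none of the 451 windows in the last 500 bases was, and none was found in Aldh1a2 or Aldh1a3. Drop-seq reads come mainly from the ends of transcripts that carry the poly(A) tail.

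**Figure D2:**
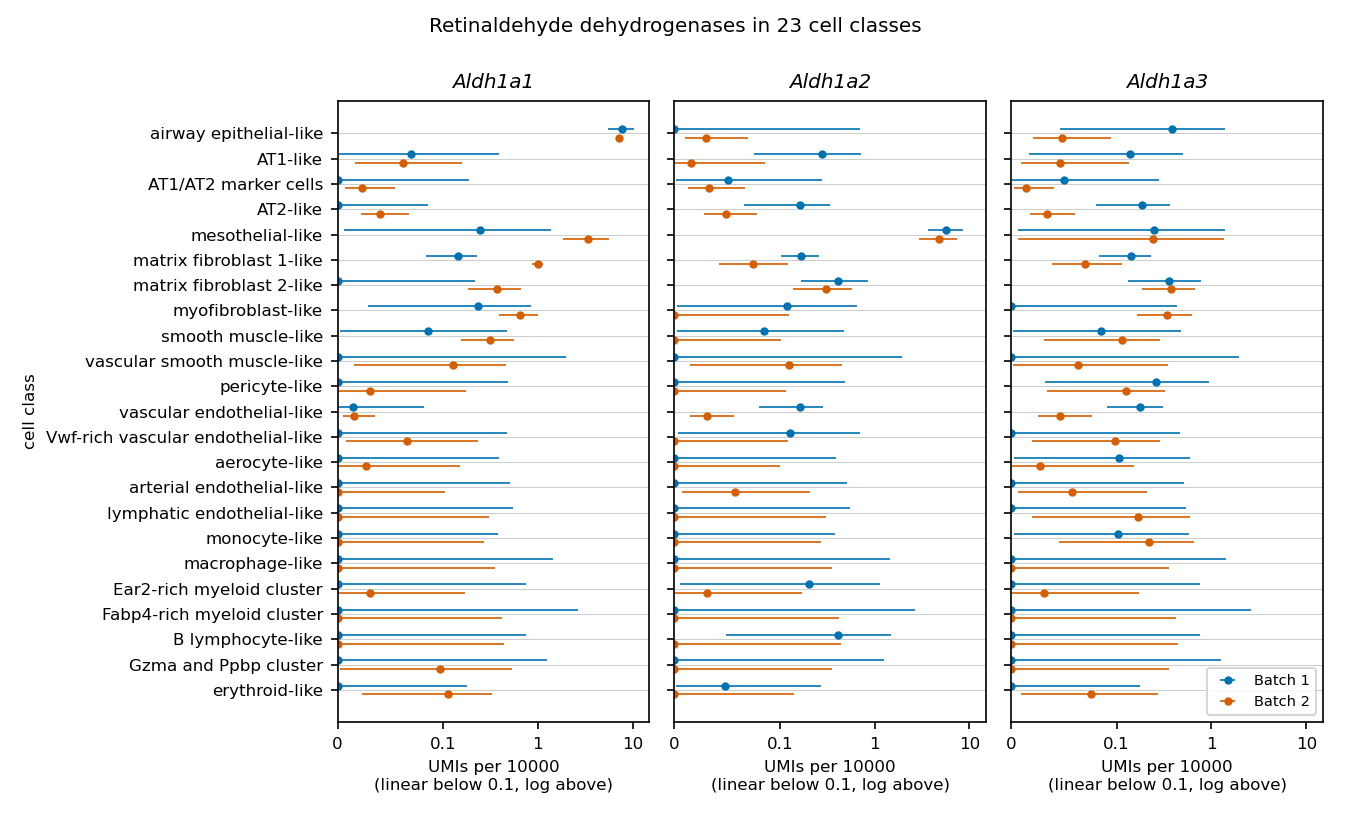
Levels of Aldh1a1, Aldh1a2 and Aldh1a3 in UMIs per 10000 in the 23 cell classes, Batch 1 in blue and Batch 2 in orange, with exact 95% Poisson intervals as bars and an axis that is linear below 0.1 and logarithmic above. Aldh1a1 peaked in airway epithelial-like cells at 7.64 and 7.20 and Aldh1a2 in mesothelial-like cells at 5.71 and 4.83, whereas Aldh1a3 stayed under 0.4 in every class.

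Aldh1a2 (chr9:71215789-71296243, plus strand), the retinaldehyde dehydrogenase of the embryonic lung mesenchyme and of the coelomic lining, was highest in the mesothelial-like class. Its level there was 5.71 per 10000 [3.62 to 8.57] (23 UMIs in 20 cells) in Batch 1 and 4.83 [2.95 to 7.45] (20 UMIs in 11 cells) in Batch 2. The batches overlapped, and the class stood 39.8-fold and 116-fold above all other cells, at 0.143 and 0.0418. It held 26.7% and 20.8% of all Aldh1a2 UMIs from 0.838% and 0.196% of cells.

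A UMI of Aldh1a2 was found in 55% [31.5 to 76.9] and 81.8% [48.2 to 97.7] of mesothelial-like cells, at median depths of 1926.5 and 2462. The share was 2.66% and 0.937% in vascular endothelial-like cells. The fitted difference was 7.30 log2 units (SE 0.60, edgeR adjusted p = 4.0e-15). Aldh1a2 met the filter on low counts only through the sums of this class, where it was highest. The p-values of this and of the other Aldh1a2 tests therefore add no support of their own, and the levels carry the result. Of 9 mesothelial marker genes 8 had UMIs in each batch, summing to 85.9 and 97.7 per 10000, against 0.356 and 0.405 in matrix fibroblast 2-like cells. The mesothelial-like class also carried matrix fibroblast 2 markers, with 8 and 9 of 11 detected and sums of 178 and 261, against 306 and 157 in matrix fibroblast 2-like cells themselves. The part of these markers in the result was not tested. In the cell types listed by the authors for Batch 1, 18 of the mesothelial-like cells were named matrix fibroblast 2 and 1 matrix fibroblast 1.

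Matrix fibroblast 2-like cells came next, at 0.415 [0.167 to 0.855] (7 UMIs) and 0.304 [0.139 to 0.577] (9 UMIs), and did not overlap with the mesothelial-like class. They were called higher than the mean of the other classes by 3.62 log2 units (SE 0.75, edgeR adjusted p = 0.000177). The direct comparison of mesothelial-like with matrix fibroblast 2-like cells gave 3.52 log2 units for Aldh1a2 (SE 0.80, edgeR adjusted p = 0.00239) and 2.79 for Aldh1a1 (SE 0.75, edgeR adjusted p = 0.0134), where 3.17% of genes were called higher. The Aldh1a2 call held without the replicate block (edgeR adjusted p = 0.0497) and under DESeq2 (adjusted p = 4.4e-05), and the Aldh1a1 call was lost in both (adjusted p = 0.148 and 0.0773). As Aldh1a2 met the filter only through the mesothelial-like sums, its p-values in this pair add no support, and its levels carry the result. Rara was not called in this pair. Over the 7 pairs of related classes compared, 3 of the 21 tests of these genes were called.

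Matrix fibroblast 1-like cells had 0.169 (20 UMIs) and 0.0745 (16 UMIs) of Aldh1a2 and were called higher by 1.97 log2 units (SE 0.65, edgeR adjusted p = 0.0188). AT2-like cells had 0.163 (7 UMIs) and 0.0488 (17 UMIs) and were called higher by 1.93 log2 units (SE 0.70, edgeR adjusted p = 0.0297), in a class where 24.5% of genes were called higher. Vascular endothelial-like cells, which were not called, had 0.162 (11 UMIs) and 0.0309 (10 UMIs), with intervals that overlap those of both classes. Both calls were lost under DESeq2 (adjusted p = 0.258 and 0.287), and within single batches the differences were 0.92 and 0.40 for matrix fibroblast 1-like cells and 0.48 and 0.37 for AT2-like cells. B lymphocyte-like cells had 0.408 in Batch 1, from 2 UMIs, and none in Batch 2. Airway epithelial-like cells had no Aldh1a2 UMI in Batch 1 and 5 (0.0302) in Batch 2.

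The 2 dehydrogenases were found together in mesothelial-like cells of Batch 2. Of 11 such cells, 7 had Aldh1a1, 9 had Aldh1a2 and 6 had both. In Batch 1, 11 of 20 cells had Aldh1a2, and 1 had Aldh1a1, which was among those 11. Aldh1a3 had 1 UMI in this class in each batch.

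Aldh1a3 (chr7:66390890-66427517, minus strand), the dehydrogenase known from the eye, the nose and secretory epithelia, was low. It had UMIs in 12 of the 23 classes in Batch 1 and 19 in Batch 2, with 56 and 105 UMIs in all. Its highest mean was in matrix fibroblast 2-like cells, at 0.356 [0.131 to 0.774] (6 UMIs in 3 cells) and 0.371 [0.185 to 0.664] (11 UMIs in 11 cells). Vascular endothelial-like cells had 0.176 and 0.0463, matrix fibroblast 1-like cells 0.143 and 0.0699, and AT2-like cells 0.187 and 0.0345, which lie close together within each batch. The part of free RNA in these low levels was not tested. Myofibroblast-like cells had none in Batch 1 and 0.340 (10 UMIs) in Batch 2. Aldh1a3 did not pass the filter on low counts. Without that filter, it was called higher in matrix fibroblast 2-like cells by 2.98 log2 units (SE 0.64, edgeR adjusted p = 9.5e-05, 6.44% of 23678 genes called higher) and in myofibroblast-like cells by 2.198 (SE 0.73, edgeR adjusted p = 0.0408, 6.05% of genes).

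The cellular retinoic acid binding proteins were close to absent. Crabp1 had 14 UMIs in Batch 1, of which 13 (92.9%) lay in matrix fibroblast 1-like cells, in 8 of 834 cells. Its level there was 0.110 [0.0584 to 0.187] in Batch 1 and 0.00932 [0.00113 to 0.0337] in Batch 2 (2 of 4 UMIs), and these intervals do not overlap. The other 2 UMIs of Batch 2 lay in AT1/AT2 marker cells, alveolar cells with markers of both AT1 and AT2. Without the filter, Crabp1 was called higher in matrix fibroblast 1-like cells by 3.76 log2 units (SE 1.02, edgeR adjusted p = 0.0026, 16.3% of genes called higher). Crabp2 had 8 and 13 UMIs, of which matrix fibroblast 1-like cells held 5 and 2, AT1/AT2 marker cells 2 and 3, and matrix fibroblast 2-like cells 0 and 2. Its highest level in any class was 0.118 (1 UMI in myofibroblast-like cells), and its differences between classes were not detectable at this depth.

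Rara (chr11:98927818-98974942, plus strand), the receptor alpha, was found in nearly every class. Over the 23 classes its level ran from 0 to 2.07 with a median of 0.510 in Batch 1, and from 0 to 0.956 with a median of 0.288 in Batch 2. Monocyte-like cells had 2.07 [1.27 to 3.20] (20 UMIs in 59 cells) and 0.815 [0.407 to 1.46] (11 UMIs in 60 cells). Cells of the Ear2-rich myeloid cluster had 1.43 (7 UMIs) and 0.493 (16 UMIs), and their range overlapped that of the monocyte-like class. Aerocyte-like cells, capillary cells specialised for gas exchange, had 0.854 (8 UMIs) and 0.956 (35 UMIs). Vascular endothelial-like cells had 0.705 [0.520 to 0.935] (48 UMIs) and 0.800 [0.706 to 0.904] (259 UMIs), just under the aerocyte-like range, and arterial endothelial-like cells had 0.695 and 0.606.

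Rara was called higher in 3 classes and lower in 2. In monocyte-like cells the difference was 2.07 log2 units (SE 0.41, edgeR adjusted p = 5.9e-05, 12.8% of genes called higher in the class). In aerocyte-like cells it was 1.41 (SE 0.37, edgeR adjusted p = 0.00276, 14.5% called higher) and in vascular endothelial-like cells 1.20 (SE 0.28, edgeR adjusted p = 0.000459, 19.4% called higher). Batch 1 alone gave 0.77 and 0.52 for these 2 endothelial classes, and Batch 2 alone 1.86 and 1.60. In the Ear2-rich myeloid cluster the difference of 1.10 (SE 0.45) did not pass, with an edgeR adjusted p of 0.0909. The shares of cells with a UMI were 32.2% and 13.3% in monocyte-like cells and 9.93% and 18.6% in vascular endothelial-like cells. Thinned to 600 UMIs they were 16.9% and 5.0%, and 3.39% and 4.40%. By the mean over batches the highest share was in airway epithelial-like cells, at 30.8% (4 of 13) and 19.8% (23 of 116), where the median depths were 3431 and 6213.5 UMIs per cell, and after thinning it was 7.69% and 1.72%.

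The alveolar epithelium stood at the low end for Rara. AT2-like cells had 0.163 (7 UMIs) and 0.0890 (31 UMIs), lower by 1.21 log2 units (SE 0.41, edgeR adjusted p = 0.0180), in a class where 3.45% of genes were called lower. AT1/AT2 marker cells had 0.0505 (1 UMI) and 0.0698 (15 UMIs), lower by 1.98 log2 units (SE 0.48, edgeR adjusted p = 0.000847, 2.9% of genes called lower). AT1-like cells had 0.278 (4 UMIs) and 0.0926 (6 UMIs) and did not pass (log2 difference -1.20, edgeR adjusted p = 0.116). Lymphatic endothelial-like cells were also low, at 0.148 (1 UMI) and 0.166 (2 UMIs), and vascular endothelial-like cells exceeded them by 2.40 log2 units (SE 0.77, edgeR adjusted p = 0.0309), in a pair where 6.31% of genes were called higher. This call was lost without the replicate block (edgeR adjusted p = 0.0987) and under DESeq2 (adjusted p = 0.0855). Matrix fibroblast 1-like and 2-like cells lay in between, at 0.675 and 0.405, and 0.593 and 0.473, and airway epithelial-like cells had 0.764 (4 UMIs) and 0.181 (30 UMIs).

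**Figure D3:**
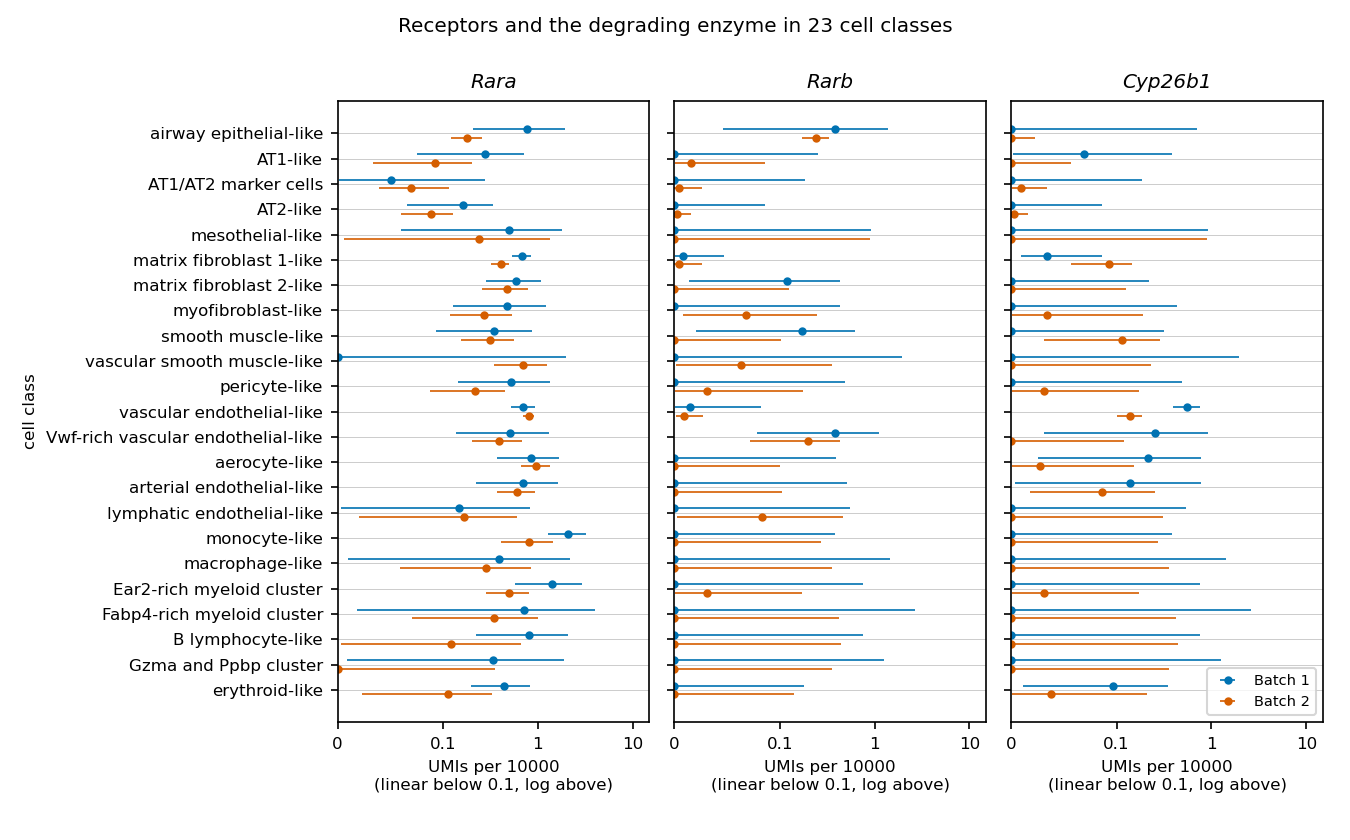
Levels of Rara, Rarb and Cyp26b1 in UMIs per 10000 in the 23 cell classes, Batch 1 in blue and Batch 2 in orange, with exact 95% Poisson intervals and an axis that is linear below 0.1 and logarithmic above. Rara lay between 0 and 2.07 across nearly all classes, Rarb was highest in airway epithelial-like cells at 0.382 and 0.241 and in Vwf-rich vascular endothelial-like cells at 0.382 and 0.197, and Cyp26b1 in vascular endothelial-like cells at 0.558 and 0.139.

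**Figure D4:**
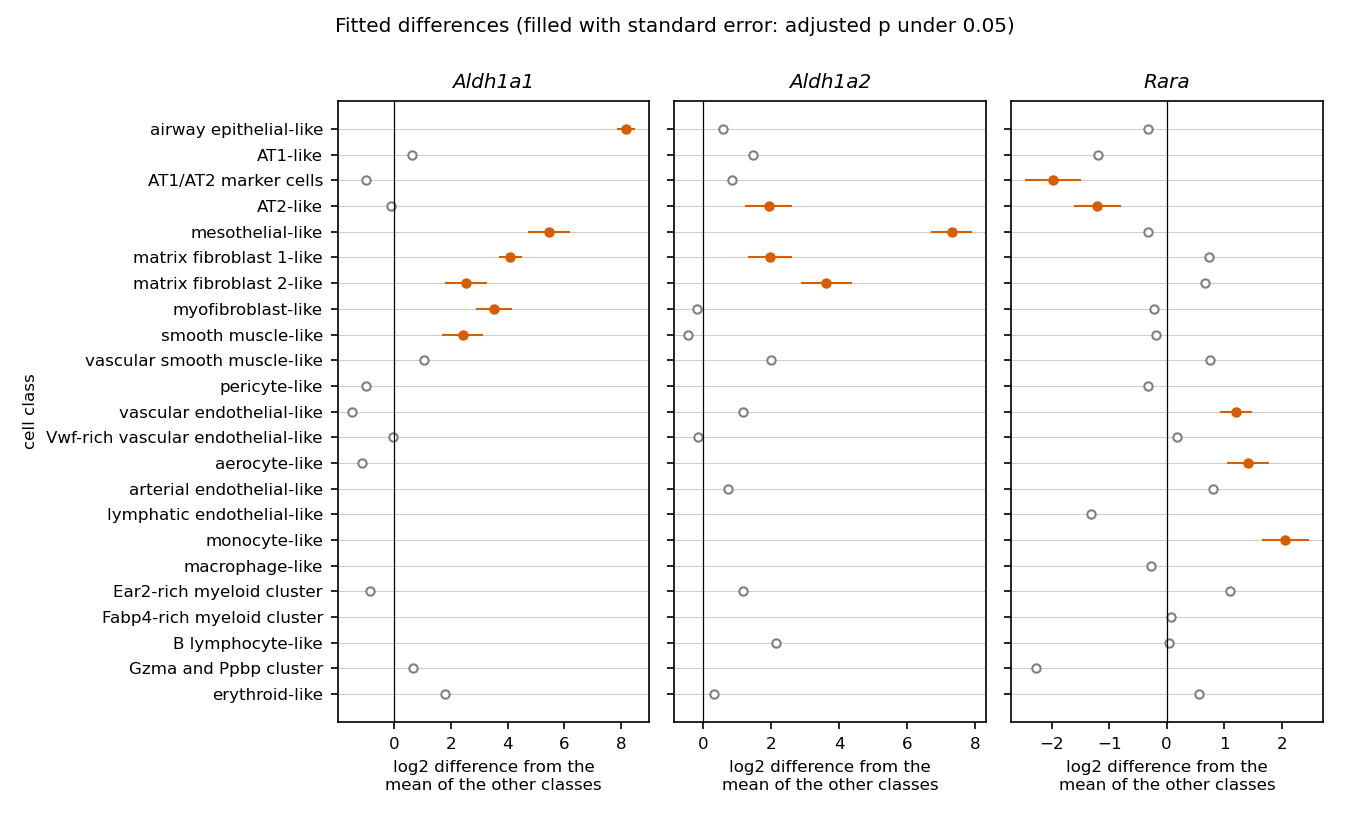
Fitted log2 differences of Aldh1a1, Aldh1a2 and Rara in each class from the mean of the other 22, with filled points and bars of 1 standard error where the edgeR adjusted p was under 0.05, open points elsewhere, and no point where a class had no UMI in either batch. The largest were 8.17 for Aldh1a1 in airway epithelial-like cells and 7.30 for Aldh1a2 in mesothelial-like cells. Rara had 2 differences that were called lower, in AT2-like and AT1/AT2 marker cells.

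Rarb (chr14:16430839-16819156, minus strand), the receptor beta, is a textbook target of retinoic acid, which acts through a pair of direct repeats near one of its start sites. Direct repeats spaced by 5 bases (DR5) were searched in RefSeq promoters of 300 bases (250 before to 50 after the start, GRCm38.p6) on both strands, with each repeat spelled AGGTCA, its known variant AGTTCA, or either of these with a G in first place (GGGTCA and, from the variant, GGTTCA). Of 32851 promoters 32 (0.0974%) held a match. Among the 14 promoters found for 7 of the 9 genes, a match was in that of Rarb, and among the promoters of 34 other retinoid genes in that of Cyp26a1, which encodes another retinoic acid hydroxylase. Repeats spaced by 2 bases (DR2) were in 88 promoters (0.268%), with none in these genes. The stretches around both matches are shown because these are the known elements of the 2 genes, in lower case with the matched repeats and their spacer in capitals. The Rarb promoter lies at chr14:16575427-16575726 on the minus strand with the match 53 to 37 bases before the start, and the Cyp26a1 promoter at chr19:37697558-37697857 on the plus strand with the match 32 to 16 bases before the start in the opposite orientation.
Rarb: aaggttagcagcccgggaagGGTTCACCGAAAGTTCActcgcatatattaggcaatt
Cyp26a1: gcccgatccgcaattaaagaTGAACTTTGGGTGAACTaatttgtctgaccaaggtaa
Promoters of Aldh1a3 and Crabp2 were not matched in the table. The spellings searched include those of both known elements, so that finding them followed from the choice of spelling. A match is a description of the sequence, and binding was not measured.

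Of the 2 genes with a matched promoter, Cyp26a1 had 1 UMI in a class in Batch 2, and Rarb was highest in airway epithelial-like and Vwf-rich vascular endothelial-like cells. In airway epithelial-like cells the Rarb level was 0.382 [0.0463 to 1.38] (2 UMIs) in Batch 1 and 0.241 [0.172 to 0.328] (40 UMIs) in Batch 2. This was 18.2% and 66.7% of all Rarb UMIs, and over all other cells the level was 0.0205 and 0.0121. The share of airway cells with a UMI was 15.4% and 18.1% (21 of 116), against 0% and 0.136% of AT2-like cells at median depths of 2099.5 and 3676.5. Thinned to 600 UMIs, the airway shares were 7.69% and 2.59%. In Batch 2 secretory airway-like cells had 0.466 (15 UMIs) and ciliated-like cells 0.187 (25 UMIs).

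Among the 21 airway cells of Batch 2 with Rarb, 19 also had Aldh1a1, which was found in 99 of the 116 cells of the class, and in Batch 1 both cells with Rarb had Aldh1a1. Vwf-rich vascular endothelial-like cells had 0.382 (3 UMIs in 1 cell) and 0.197 (6 UMIs in 5 cells), which was 27.3% and 10% of all Rarb UMIs. By the mean over batches the airway class was the higher of the 2, but in Batch 1 alone the Vwf-rich class held more UMIs, and with mitochondrial UMIs held to at most 5% it had the higher mean level, at 0.285. Rarb did not pass the filter on low counts. Without it, the airway epithelial-like difference was 4.66 log2 units (SE 0.70, edgeR adjusted p = 8.1e-10, 15.3% of genes called higher) and the Vwf-rich vascular endothelial-like difference 4.20 (SE 0.91, edgeR adjusted p = 0.000155, 4.67% of genes). Exons of Rarb overlap those of Top2b on the opposite strand, where both genes end, and of the antisense gene Gm48162, and strand use in the counting is not given in the sources used here, so that reads of these genes cannot be told apart. Top2b had 374 and 2961 UMIs over the 23 classes, against 11 and 59 of Rarb. Its level was 0.955 and 1.71 in airway epithelial-like cells against medians over classes of 0.978 and 1.71.

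Cyp26b1 (chr6:84571414-84593908, minus strand), which degrades retinoic acid, was highest in vascular endothelial-like cells. Its level was 0.558 [0.395 to 0.767] (38 UMIs in 413 cells) in Batch 1 and 0.139 [0.101 to 0.186] (45 UMIs in 1067 cells) in Batch 2. This class held 60.3% and 49.5% of all Cyp26b1 UMIs and stood 8.38-fold and 4.53-fold above all other cells, at 0.0666 and 0.0307. A UMI was found in 5.81% and 3.09% of its cells, against 0% and 0.136% of AT2-like cells, and in 3.87% and 0.562% after thinning to 600 UMIs. In Vwf-rich vascular endothelial-like cells the shares were 10.5% (2 of 19 cells) and 0%.

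Other endothelial classes were lower or without UMIs. Vwf-rich vascular endothelial-like cells had 0.255 (2 UMIs) and 0, arterial endothelial-like cells 0.139 (1 UMI) and 0.0866 (3 UMIs), and lymphatic endothelial-like cells none in either batch. Matrix fibroblast 1-like cells had 0.0337 (4 UMIs) and 0.0932 (20 UMIs). Cyp26b1 was tested only without the filter on low counts, where it was called higher in vascular endothelial-like cells by 4.66 log2 units (SE 0.56, edgeR adjusted p = 4.9e-15, 13.9% of genes called higher) and in matrix fibroblast 1-like cells by 2.66 (SE 0.65, edgeR adjusted p = 0.000668).

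The vascular endothelial Cyp26b1 level differed between the batches beyond counting error, in the direction opposite to Aldh1a1 in matrix fibroblast 1-like cells. In the 4 vascular endothelial-like clusters it was 0.644, 0.735, 0.226 and 0.570 in Batch 1 against 0.13, 0.129, 0.197 and 0.111 in Batch 2. With mitochondrial UMIs held to at most 5% the values of the class were 0.558 and 0.0766. The difference was smallest in the cluster at 0.226 and 0.197. As each batch is 1 mouse, no test between batches was made.

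The other genes of the pathway were taken from a list of 54 genes, of which 50 were listed in the data and 27 passed the filter. Of these, 24 were called in at least 1 class in either direction, where 84.3% of all 7136 genes were (6016 genes). Of their 621 tests 127 (20.5%) were called higher and 8 lower. Matrix fibroblast 1-like cells had the most, with 16 higher and 1 lower of 27 and a median log2 difference of 1.44, against 0.31 over all genes and 23.3% of genes called higher. Tbx5, 1 of the 27 genes, was also among the markers by which this class was named. A call of Tbx5 there is therefore not independent of the name. Myofibroblast-like cells had 14 higher and 1 lower (median 1.56 against 0.21), and matrix fibroblast 2-like cells 13 higher (median 1.36 against 0.20), with 14.7% and 14.5% of all genes called higher in these classes. Airway epithelial-like cells had 3 higher and 1 lower and mesothelial-like cells 4 higher and 1 lower.

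For storage and the first oxidation step, Adh1, an alcohol dehydrogenase that oxidises retinol, was highest in matrix fibroblast 1-like cells at 17.6 and 7.17 per 10000 (6.51 log2 units, edgeR adjusted p = 1.5e-31). Dhrs3, which returns retinaldehyde to retinol, was highest in the Fabp4-rich myeloid cluster at 1.43 and 0.915 (2.15 log2 units, edgeR adjusted p = 0.0274) and was also called in airway epithelial-like and AT2-like cells, with 2.15 and 2.89 log2 units. Adh5 had its highest level in arterial endothelial-like cells at 1.11 and 1.04, where it was not called, and was called in matrix fibroblast 1-like cells with 0.65. Lpl, which releases fatty acids and retinyl esters from lipoproteins, was highest in the Fabp4-rich myeloid cluster at 25.8 and 10.3.

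For the further oxidation of retinoids, Aldh1a7 was highest in airway epithelial-like cells at 1.91 and 3.87 (6.87 log2 units, edgeR adjusted p = 3.5e-21), the class in which Aldh1a1 was highest. Cyp1b1, a monooxygenase that acts on retinol among other compounds, was highest in myofibroblast-like cells at 0.355 and 1.91, and Fabp5, which carries fatty acids and retinoic acid, in the Fabp4-rich myeloid cluster at 20.03 and 21.5. Fabp5 was called lower in 5 classes, the airway epithelial-like class (-2.29), the matrix fibroblast 1-like class (-1.90) and the myofibroblast-like class (-2.82) among them. Of the other receptors only Rarg passed the filter, and it was highest in aerocyte-like cells at 0.854 and 0.820 (2.64 log2 units, edgeR adjusted p = 1.3e-05), a class in which Rara was also called.

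All 10 tested genes known to respond to retinoic acid were called in at least 1 class, which held for 84.3% of all genes tested. Rarres2 was highest in mesothelial-like cells, where Aldh1a2 was highest, at 31.8 and 23.4 (7.50 log2 units, edgeR adjusted p = 2.4e-27). The transcription factors Nr2f1, Nr2f2, Tbx5 and Hoxb5 were highest in pericyte-like cells, with 9.62 and 6.17 for Nr2f2 and 8.70 and 6.17 for Tbx5, 3.43 and 0.970 for Nr2f1 and 1.98 and 0.751 for Hoxb5. Hoxa5, Meis2 and the transglutaminase Tgm2 were highest in Vwf-rich vascular endothelial-like cells, at 3.82 and 4.29, 4.33 and 2.23, and 2.29 and 5.14. Meis1 and Egr1 were highest in smooth muscle-like cells, at 1.37 and 1.38, and 3.84 and 19.9. Pericyte-like cells held no call of Aldh1a1, Aldh1a2 or Rara. Of 7 tested coregulators of nuclear receptors 5 were called in a class, against the same 84.3% of all genes, among them Nrip1 and Crebbp, highest in myofibroblast-like cells (2.01 and 4.02, and 1.18 and 1.40), and Ncoa1 and Ncoa3, highest in macrophage-like cells (0.782 and 0.384, and 1.56 and 0.480). Of these 4, only Nrip1 was called in the class of its highest level.

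Erythroid-like cells had 7 of the 27 genes called higher, Adh1 (4.47) and Tbx5 (3.44) among them, where 10.3% of all genes were called higher. In these cells 9 of 9 matrix fibroblast 1 markers had UMIs in Batch 1 and 7 of 9 in Batch 2, summing to 19.1 and 4.17 per 10000, against 79.6 and 71.6 in matrix fibroblast 1-like cells. Tbx5 is itself on that marker list. The part of these fibroblast transcripts in the 7 calls was not tested. Of the erythroid-like cells of Batch 1, the authors listed 33 as matrix fibroblast 1, 17 as vascular endothelial and 3 as matrix fibroblast 2. They listed 5 as contaminants of the kind RBC+.

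**Figure D5:**
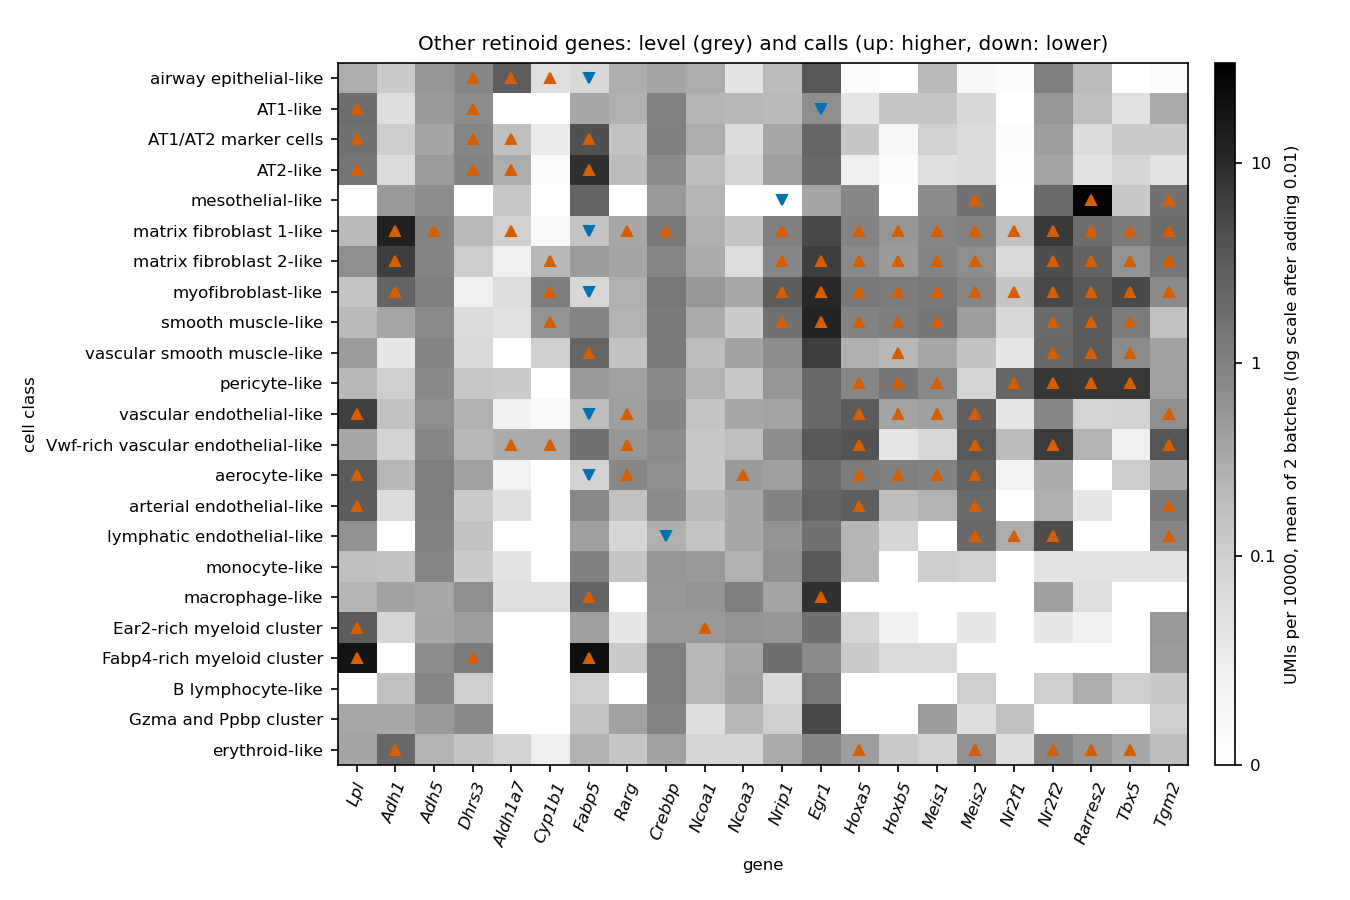
Levels of the other retinoid genes called in at least 1 class and reported by name, as the mean over the 2 batches in UMIs per 10000 (grey, log scale after adding 0.01), with an upward triangle where the edgeR adjusted p was under 0.05 and the class was higher than the mean of the others, and a downward one where it was lower. The matrix fibroblast 1-like, myofibroblast-like and matrix fibroblast 2-like lines hold the most upward triangles, and the airway epithelial-like line holds 3.

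The genes whose pattern over the 46 sums of class and batch was most like each of the 9 were listed as a description, by Pearson's r of log2(CPM + 1). These sums share libraries and differ in depth, from 13979 to 3482004 UMIs. For Aldh1a1 they were Cyp2s1 (r = 0.80), Tekt1 (0.73) and Ccdc11 (0.71), and Tekt1 is a gene of the cilium. For Aldh1a2 they were Efemp1 (0.72), Upk1b (0.67), which marks mesothelium, and Col14a1 (0.65). Aldh1a3 was most like Arhgap10 (0.70), Map9 (0.63) and Igfbp6 (0.63). For Rara they were Colgalt1 (0.77), Stard9 (0.72) and Rnf7 (0.63), and for Rarb Lrrc26 (0.64), Fam161a (0.61) and 4833423E24Rik (0.61). Cyp26b1 was most like Clec1a (0.75), Tnfsf10 (0.75) and Tmem100 (0.69), of which Clec1a and Tmem100 are known from endothelium. Crabp1 (17 UMIs in these sums), Crabp2 (21) and Stra6 (7) were most like Scube2 (0.56), Pdgfrl (0.50) and Nr2f1 (0.65), which in such sparse counts is no finding.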

How the data were processed

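The authors aligned the cDNA reads with Bowtie2 2.2.7 to mm10 and deposited a table of UMI counts per gene and cell barcode for each batch, with at least 500 genes per cell. The counter's strand setting and annotation are not given in the sources used here. From these deposited counts, cells with more than 10% mitochondrial UMIs were removed (8003 kept), cells were clustered in 2 rounds (2000 variable genes, 30 then 20 principal components, Leiden resolution 1.5 then 1, leidenalg 0.10.2) without 59 retinoid genes, and clusters were named by marker lists. Keeping those genes gave 96.5% of cells the same class.

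Counts were summed by class and batch and tested with edgeR 4.0.16 (TMM, quasi-likelihood F-test, filterByExpr, batch as a replicate block, threshold 0.05 after Benjamini-Hochberg adjustment), in the 23 classes with at least 10 cells per batch. Each class was set against the mean of the others, and 7 pairs of related classes were compared. A batch is 1 mouse, so the block pairs sums of the same animal, and the deviations of the classes from their means over batches correlated with a median of 0.119 between classes. Alternatives were DESeq2 1.42.0, no block, no low-count filter, a mitochondrial limit of 5%, each batch alone, levels as means over cells, detection at 2 UMIs or after thinning each cell to 600 UMIs (seed 1), cell types listed by the authors for Batch 1 as labels, retinoid genes kept in the clustering, and, added after seeing the data, airway classes kept apart with at least 4 cells. Scripts were tested on simulated data. The floor for a count of 0 was 3 counts.

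The genes, lists and tests were chosen with earlier results of these data known. All 9 genes are named, with the other retinoid genes called in a class at the class of their highest level (2 of these are not reported here by name), and the 3 genes most like each of the 9. Gene positions are from the GRCm38 annotation, and promoters from RefSeq (GRCm38.p6). Precision is set by the depth of 4432553 and 18232639 UMIs, and the neutrophil-like class (3 and 78 cells), the basophil or mast-like class (5 and 9 cells) and unnamed clusters were left out of the tests.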

Additional observations from a re-analysis of the deposited data

Results flagged for a closer look

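The 1940 cells of Batch 2 over the mitochondrial limit, which no comparison used, also held the genes of the pathway. In UMIs per 10000 they had 0.406 of Aldh1a1 (204 UMIs), 0.0398 of Aldh1a2 (20 UMIs), 0.0338 of Aldh1a3 (17 UMIs), 0.310 of Rara (156 UMIs), 0.0179 of Rarb (9 UMIs) and 0.0537 of Cyp26b1 (27 UMIs). In the kept cells of Batch 2 the values were 0.834, 0.0527, 0.0576, 0.349, 0.0329 and 0.0499. The 95% Poisson intervals did not overlap for Aldh1a1 (0.352 to 0.465 against 0.793 to 0.877) and did for the other 5. Crabp1 and Stra6 had no UMI in these cells and Crabp2 had 2. They were not assigned to classes here, so whether they differ in cell type was not tested.

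Neutrophil-like cells, left out of the fit because Batch 1 held 3 of them, had 0.297 of Rara per 10000 in Batch 2 (6 UMIs in 78 cells).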

How the results depend on the processing

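The 13 higher and 2 lower calls of Aldh1a1, Aldh1a2 and Rara became 21 and 1 without the low-count filter, which let 7 of the 9 genes be called, and 7 and 1 with mitochondrial UMIs held to at most 5%, where the mesothelial-like class had too few cells to be fitted. Without the replicate block they were 10 and 1, with Aldh1a1 in matrix fibroblast 2-like (adjusted p = 0.0917) and smooth muscle-like cells (0.0916) and Aldh1a2 (0.0892) and Rara (0.0994) in AT2-like cells no longer called. DESeq2 gave 9 and 2. The 3 pair calls fell to 1, Aldh1a2, without the block and under DESeq2 and to 0 at the 5% limit (edgeR), where the mesothelial-like pair could not be fitted, Aldh1a2 did not pass the filter and 1 of 12 tests, of Rara in the vascular minus lymphatic endothelial-like pair, had an unadjusted p under 0.05 (adjusted p = 0.156). The 8 lower calls of other retinoid genes became 5 without the block, 32 under DESeq2 and 3 at the 5% limit.

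Leaving out either batch kept the sign of 14 to 15 of the 15 class calls, of all 3 pair calls and of 130 to 131 of 135 calls of other retinoid genes. The size of the class and pair differences held less well, on a scale of log2 CPM that is not that of the fit. Without Batch 1 it moved in 10 and stayed in 8. Without Batch 2 it moved in 12, reversed in 1 and stayed in 5. The class of the highest level by the mean over batches stayed for 6 to 7 of the 9 genes, and that of the highest share of cells (airway epithelial-like for Rara and Aldh1a3, AT1/AT2 marker cells for Crabp2, Vwf-rich vascular endothelial-like for Cyp26b1 and Stra6) for 3 to 8. Counting only cells with at least 2 UMIs kept the latter for 3 genes, and thinning for 4, and under both the share of Rara was highest in monocyte-like and that of Cyp26b1 in vascular endothelial-like cells. Aldh1a1 in matrix fibroblast 2-like cells reversed without replicate 2, the mouse of Batch 2 (-0.55), and with the cell types the authors listed for Batch 1 (-0.13), against 2.54 in both batches and 1.83 without replicate 1. Batch 1 held no UMI there. The causes of the other changes were not tested. The depth limits Stra6 and Crabp2 to values without an order of classes.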

Other observations

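Cells with several of the 9 genes were rare. A UMI of 2 of them was found in 38 cells of Batch 1 and 98 of Batch 2, of 3 in 4 and 15 cells, and of 4 in 1 and 3 cells. Over all kept cells of Batch 2, 21 of the 39 cells with Rarb also had Aldh1a1, which 342 of the 5615 cells had. In Batch 1 it was 2 of 8, where 35 of 2388 cells had Aldh1a1. Of these cells with both genes, 19 of the 21 and both of the 2 were airway epithelial-like. In that class 99 of 116 cells of Batch 2 and 11 of 13 of Batch 1 had Aldh1a1, so that the overlap follows the class. Aldh1a1 and Cyp26b1, an enzyme of synthesis and of degradation, were found together in 1 and 4 cells, against 45 and 72 cells with Cyp26b1.

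Rbp4, the carrier of retinol in blood, was highest in airway epithelial-like cells at 1.72 (9 UMIs) and 0.416 (69 UMIs) per 10000, the class in which Aldh1a1 was highest, but did not pass the filter on low counts. In Batch 1 its 9 UMIs lay in 15.4% of the 13 cells of this class. The 437 cells in unnamed clusters had 0.723 and 0.447 of Rara and 0.294 and 0.112 of Cyp26b1.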
